A study of Mus musculus with 21 samples.

Results

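The genes for voltage-gated calcium channel subunits, voltage-gated sodium channel subunits and hyperpolarization-activated cyclic nucleotide-gated (HCN) channels were examined in RNA from mouse midbrain. Members were all genes whose symbol starts with Cacna, or with Cacnb, Cacng, Scn or Hcn followed by a digit. This gave 43 of 33829 genes listed for the pre-treatment experiment and 44 of 55385 genes listed for the delayed treatment experiment, where Scn4a was the additional gene. No measured value entered this rule, but it was set with earlier results of these data known.

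The study tested whether irisin, a peptide released by muscle during exercise, acts on the loss of dopaminergic neurons caused by MPTP, a toxin that is converted in the brain and taken up through the dopamine transporter. RNA-seq was made from 21 male C57BL/6 mice aged 6 weeks, in 7 groups of 3. The paper's methods describe nigral tissue taken out by hand, and its figure legend for these data names midbrain. All agents were injected into the peritoneum once a day for 10 days, with MPTP at 30 mg/kg, irisin at 200 µg/kg and ddH2O as vehicle. In the pre-treatment experiment, control mice received ddH2O for 10 days, MPTP treated mice received ddH2O for 5 days and then MPTP for 5 days, and the third group received irisin for 5 days and then MPTP for 5 days. In the delayed treatment experiment, control mice received ddH2O for 10 days, irisin mice received ddH2O for 5 days and then irisin for 5 days, MPTP treated mice received MPTP for 5 days and then ddH2O for 5 days, and the last group received MPTP for 5 days and then irisin for 5 days. The control mice of each experiment were also injected every day, and no group was left uninjected. MPTP harms one small class of neurons in this tissue, so that the RNA of many other cells was measured with it.

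Voltage-gated calcium channels are built around a pore subunit (Cacna1 genes) that is carried to the membrane and tuned by an intracellular beta subunit (Cacnb) and an extracellular alpha2delta subunit (Cacna2d). Most of the Cacng genes code for proteins that accompany AMPA-type glutamate receptors (the TARPs) rather than calcium channels. Sodium channels have a pore subunit (Scn with the suffix a) and beta subunits (suffix b), and HCN channels open on hyperpolarization and carry the pacemaker current. Dopaminergic neurons of the substantia nigra fire as pacemakers, and the L-type channel encoded by Cacna1d and the HCN channels are known to take part in this rhythm. Their calcium entry has been much discussed as a load on these neurons in Parkinson's disease.

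The L-type pore genes Cacna1c and Cacna1d and Hcn2 are shown by the 30 bases just before their RefSeq start sites (GRCm38.p6), since they hold both kinds of start region found among the members, rich and poor in the dinucleotide CG. CG is in capitals, and each window is written 5′ to 3′ on the strand of the gene.

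Cacna1d, chr14:30353487-30353516, minus strand: tcCGtcccCGgatgtgagctcCGgctgccc
Cacna1d, chr14:30491157-30491186, minus strand: acaaggagaaacacagaacaacagCGctac
Cacna1c, chr6:119108496-119108525, minus strand: gCGgCGgCGgcagtggCGgCGgCGgCGgCG
Cacna1c, chr6:119196410-119196439, minus strand: ccaagaaaggaggagtgctttcagaattcc
Cacna1c, chr6:118757975-118758004, minus strand: tctagaacaggggggctggtggtaggctct
Hcn2, chr10:79716604-79716633, plus strand: tccctCGggctCGgcCGgCGgCGgCGgCGg

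In the full 300-base windows around these starts (250 bases before and 50 after), CG occurred 63 and 4 times at the starts of Cacna1d, 57, 3 and 7 times at those of Cacna1c, and 26 times at that of Hcn2. RefSeq windows were found for 32 members, 43 windows in all, because 9 members had more than 1. At least 20 CG were present in 39.5% of the member windows and in 26.5% of all 32851 windows. The relation of level to CG number was not tested over the members, and single genes went both ways. Scn2b, one of the genes with a high level, had 2 CG in its window and Cacng8 also had 2. Cacna1d, with a low level, had the highest number, 63, but only 4 at its other start. In the other direction, Scn4b and Hcn2, also with high levels, had 26 each. Scn11a and Cacna1f, with very low levels, had 3 and 5. The counts per gene do not show which start was used.

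Before the channel genes are described, the libraries need a short account. The total count per mouse ranged from 66653781 to 75637604 for the pre-treatment mice, and from 48843585 to 77203445 for the delayed treatment mice. Th, the enzyme that sets the rate of dopamine synthesis, was present in every library, at 7.89 to 20.9 FPKM (the authors' unit, fragments scaled by gene length and by depth) and 11.7 to 23.5 FPKM. Choroid plexus markers summed to 1623 CPM (counts scaled to library size) in replicate 2 of the MPTP treated mice of the pre-treatment experiment, against 20.9 to 39.8 CPM in the other 8 mice. They ran from 61.6 to 1648 CPM over the 12 mice of the delayed treatment experiment, with both ends of that range in groups that received MPTP. In that experiment, control mice were at 1504, 1346 and 255 CPM and irisin mice at 79.9, 90.6 and 312 CPM. MPTP treated mice were at 61.6, 106 and 1533 CPM, and mice given delayed irisin at 187, 1648 and 584 CPM. The 4 markers of cerebellum were also highest in that MPTP treated mouse, at 68.2 CPM, against 1.89 to 10.8 CPM. The part of such adjacent tissue in the results below was not tested.

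The channel genes spanned more than 4 orders of magnitude in level. Since FPKM is scaled by gene length, it can be compared between genes. In both experiments 33 members had a mean of 1 FPKM or more over all mice, and 6 members were below 0.1 FPKM. The order of levels was nearly the same in both experiments, with Spearman's rho of 0.976 over 43 genes in the same tissue. The annotation differed between the experiments for some members. The gene length implied by count and FPKM was 14.2 kb (pre-treatment) and 17.1 kb (delayed treatment) for Cacna1d, and 12.9 and 13.9 kb for Cacna1a. FPKM of such genes is therefore not on the same length scale in both experiments. Hcn2, Cacng7, Scn4b and Scn2b were among the highest in both experiments, and none of them codes for the pore of a calcium or sodium channel.

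**Figure D1:**
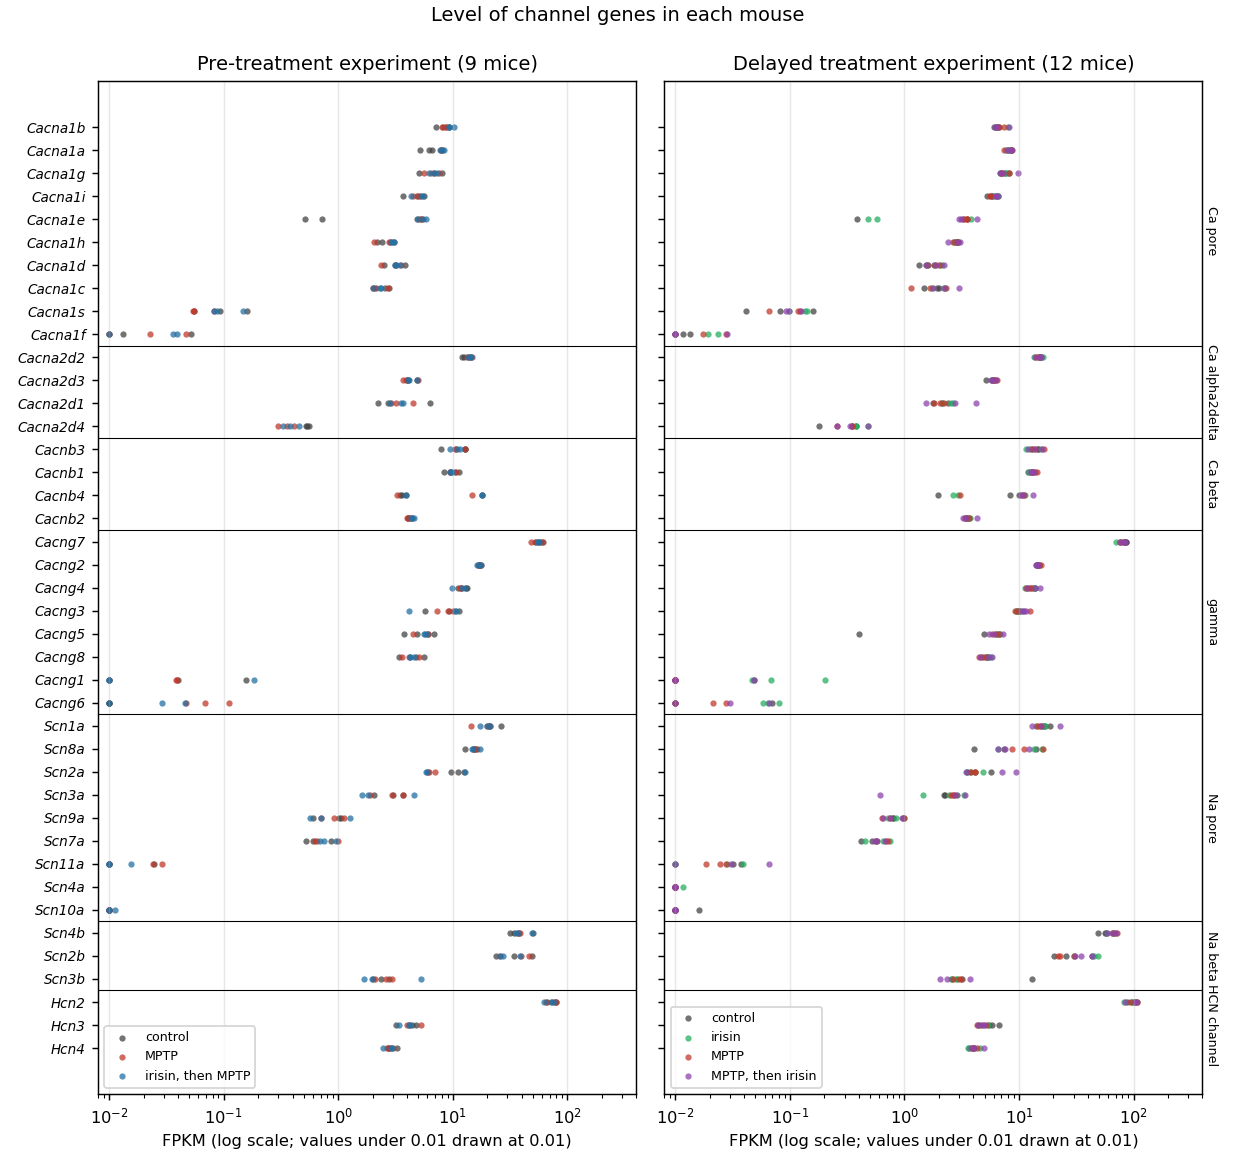
FPKM (log scale) of 40 channel genes (left) and 41 channel genes (right) in each mouse, 1 point per mouse, in the pre-treatment experiment (left, 9 mice) and the delayed treatment experiment (right, 12 mice), colored by group and divided into 7 role groups. The genes run from Hcn2 at 63.2 to 108 FPKM down to Scn10a, listed at or near 0, and Cacna1e and Cacnb4 show mice on separate levels.

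Among the calcium channel pores, the N-type and P/Q-type genes, which drive transmitter release, and Cacna1g, a T-type gene whose channel opens near the resting potential, had the highest means. Cacna1b (N-type) had a mean of 8.77 FPKM in the pre-treatment experiment and 6.79 FPKM in the delayed treatment experiment. Cacna1a (P/Q-type) had 7.35 and 8.20 FPKM, and Cacna1g (T-type) had 6.63 and 7.57 FPKM. The ranges of these 3 genes over mice overlapped in both experiments, but the genes were measured in the same mice. Cacna1b was above Cacna1a in every mouse of the pre-treatment experiment and below it in every mouse of the delayed treatment experiment. Cacna1i (T-type) followed at 4.87 and 6.06 FPKM. Cacna1e (R-type), at 4.25 and 2.72 FPKM with a wide spread between mice, and Cacna1h (T-type), at 2.69 and 2.80 FPKM, were lower.

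The L-type genes had lower means than Cacna1b, Cacna1a, Cacna1g and Cacna1i. Cacna1d (ENSMUSG00000015968, chr14:30039939-30491455, minus strand) had a mean of 3.15 FPKM in the pre-treatment experiment and 1.79 FPKM in the delayed treatment experiment. Cacna1c had 2.33 and 1.97 FPKM. The ranges of Cacna1c and Cacna1d overlapped in both experiments. Cacna1s, the pore of skeletal muscle, had 0.0904 and 0.106 FPKM, and Cacna1f, the pore of the retina, had 0.0252 and 0.0128 FPKM. Both of these L-type genes were therefore far under the other calcium channel pores, at 0 to 81 reads per mouse.

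The accessory families each had members at 10 FPKM or more in at least 1 experiment. Cacna2d2 led the alpha2delta subunits at 13.7 and 15 FPKM, and its lowest mouse was above the highest mouse of Cacna2d3, Cacna2d1 and Cacna2d4 in each experiment. Cacna2d4, mainly known from the retina, had 0.427 and 0.346 FPKM. Cacnb3 (11 and 13.9 FPKM) and Cacnb1 (9.84 and 13.0 FPKM) had the highest means of the beta subunits with overlapping ranges, and Cacnb4, at 9.67 and 8.01 FPKM, ran from 3.24 to 18.1 FPKM and from 1.95 to 13.2 FPKM over mice and overlapped with both. Cacng7 led the TARP family at 55.4 and 80.4 FPKM, followed by Cacng2 (stargazin) at 17.1 and 14.6 FPKM, while Cacng1, the subunit of skeletal muscle, and Cacng6 had means below 0.1 FPKM.

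In the sodium channel genes, the pore of inhibitory neurons, Scn1a, led at 20.2 and 16.2 FPKM. Scn8a followed at 15.3 and 10.3 FPKM and Scn2a at 8.54 and 4.80 FPKM, and these genes code for the pores of axons. Scn3a, an early developmental form, had 2.80 and 2.43 FPKM. Scn10a and Scn11a, the pores of sensory neurons of the dorsal root ganglia, had means of 0.00126 to 0.0253 FPKM, with 0 reads in at least 1 mouse. Of the beta subunits, Scn4b had 39.1 and 63.0 FPKM, Scn2b had 34.5 and 33.2 FPKM, and Scn3b was lowest at 2.63 and 3.65 FPKM. Hcn2 was the highest HCN gene at 72.6 and 97.2 FPKM, and Hcn3 and Hcn4 lay between 2.84 and 5.07 FPKM.

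MPTP against control, in the pre-treatment experiment, compared mice given MPTP on the last 5 days of injection with vehicle mice. No channel gene passed an adjusted p of 0.05 (quasi-likelihood test of edgeR, Benjamini-Hochberg adjustment over all 22641 tested genes, of which 40 were members), and DESeq2 and limma gave 0 as well. Over all tested genes, 0.0221% passed. At an unadjusted p under 0.05 there were 4 of 40 members, or 10.0%, against 6.03% of all tested genes. DESeq2 gave 5 members and limma gave 4 on this scale, and by edgeR there were 2 without MPTP replicate 3 and 7 without control replicate 3. The members had a median log2 fold change of -0.01, and that of all tested genes was 0.00. For 33 of the 40 members, the 95% interval of the log2 fold change lay inside -1 to 1, so that a change of more than 2-fold in mean count was outside the interval.

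The smallest unadjusted p belonged to Cacna1a (ENSMUSG00000034656, chr8:84388440-84640246, plus strand in this table). Control mice had 6.63, 6.16 and 5.19 FPKM, and MPTP treated mice had 8.04, 7.97 and 7.94 FPKM. Every MPTP treated mouse was above every control mouse. Its log2 fold change was 0.40 ± 0.09 (SE), with an unadjusted p of 0.00199 and an adjusted p of 0.608 by edgeR. The mice given irisin before MPTP had 8.08, 7.71 and 8.40 FPKM, on the level of the MPTP group. In the delayed treatment experiment the 3 control mice were at 8.01, 8.76 and 8.54 FPKM and the 3 MPTP treated mice at 8.45, 8.48 and 7.35 FPKM, so the groups overlapped there. The non-overlap of MPTP and control mice was found for 4 of 40 members, 2 higher and 2 lower, or 10.0%, and for 11.6% of all tested genes.

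Cacna2d4 (chr6:119236526-119352407, plus strand) had 0.537, 0.551 and 0.521 FPKM in control mice and 0.357, 0.298 and 0.409 FPKM in MPTP treated mice. All MPTP treated mice were below the control mice. The log2 fold change was -0.60 ± 0.18 (SE), with an unadjusted p of 0.00854 and an adjusted p of 0.815 by edgeR. On the opposite strand, inside this gene, lies Lrtm2, which had 2766 to 3984 reads per mouse against 219 to 413 for Cacna2d4. Whether strand was used in counting is not given in the sources used here, so that reads of Lrtm2 and Cacna2d4 cannot be told apart with certainty. Lrtm2 had a log2 fold change of -0.11, with an unadjusted p of 0.488 and an adjusted p of 0.956 by edgeR.

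Scn2a (chr2:65620771-65767447, plus strand), a pore of the axon initial segment, was the third. Control mice had 12.5, 9.57 and 11 FPKM, MPTP treated mice had 7.05, 6.18 and 6.12 FPKM, and the mice given irisin before MPTP had 5.79, 5.90 and 12.7 FPKM. The MPTP treated mice were all below the control mice, and 1 of the 3 irisin mice was above all of them. MPTP against control gave a log2 fold change of -0.78 ± 0.28 (SE), with an unadjusted p of 0.0202 and an adjusted p of 0.818 by edgeR. The same contrast gave -0.14 ± 0.30 (SE) in the delayed treatment experiment, with overlapping groups. Cacnb4, with 1.71 ± 0.67 (SE), was the fourth gene under 0.05, and its values are given with the members on separate levels.

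Cacna1d, Cacna1c, Hcn2 and Hcn4, taken as the genes of dopaminergic pacemaking, did not separate the groups in this comparison. Cacna1d had 3.86, 2.50 and 3.15 FPKM in control mice and 3.54, 2.38 and 3.19 FPKM in MPTP treated mice. The groups overlapped, with a log2 fold change of -0.06 (95% interval -0.46 to 0.34). Cacna1c had 2.75, 2.13 and 2.55 FPKM against 2.03, 2.74 and 2.06 FPKM, with -0.13 (95% interval -0.43 to 0.17). Hcn2 had 72.8, 80.3 and 67.0 FPKM against 65.2, 79.1 and 77.9 FPKM, with 0.00 (95% interval -0.25 to 0.26). Hcn4 had 3.23, 2.77 and 2.72 FPKM against 3.03, 2.67 and 2.82 FPKM, with -0.04 (95% interval -0.29 to 0.21). The groups overlapped for each of these genes. The Slc6a3 gene, the dopamine transporter through which MPTP acts, had 23.0 ± 6.77 FPKM in control mice and 14.5 ± 2.21 FPKM in MPTP treated mice (SD, n = 3 each), and the marker sums of dopaminergic neurons overlapped between the groups. In bulk tissue, fewer cells of one type and less RNA per cell cannot be told apart.

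Irisin before MPTP was compared with MPTP alone to ask whether irisin given first alters the response. Of 40 members, 0 passed an adjusted p of 0.05 by edgeR, and DESeq2 and limma also gave 0, while 0.0707% of all tested genes passed. At an unadjusted p under 0.05 the count was 0 members as well by edgeR, DESeq2 and limma, against 6.22% of all tested genes, and it was 1 without replicate 3 of the mice given irisin before MPTP. The median log2 fold change was 0.04 over members and 0.00 over all tested genes, and 33 of 40 intervals lay inside 2-fold. The smallest p in the list was that of Cacna1b, with 8.06, 8.73 and 8.73 FPKM in MPTP treated mice and 9.23, 9.22 and 10.2 FPKM after irisin and MPTP. The irisin mice were all above the MPTP treated mice for Cacna1b and for Cacna1h, and for no other member. This is 5.0% of the members, against 14.3% of all tested genes with groups that do not overlap. Cacna1b had a log2 fold change of 0.17 ± 0.09 (SE), with an unadjusted p of 0.0949 and an adjusted p of 0.888 by edgeR.

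For the genes linked with pacemaking, the irisin group lay within or near the MPTP group. Cacna1d had 3.11, 3.17 and 3.44 FPKM and Cacna1c had 2.01, 2.38 and 2.33 FPKM in the mice given irisin before MPTP. Hcn2 had 76.8, 71.4 and 63.2 FPKM and Hcn4 had 2.89, 2.46 and 2.97 FPKM. Their log2 fold changes against MPTP alone were 0.09, -0.02, -0.07 and -0.03. T-type Cacna1h had 2.82, 2.06 and 2.76 FPKM with MPTP alone and 2.93, 2.90 and 3.07 FPKM with irisin first, with a log2 fold change of 0.22 (95% interval -0.13 to 0.58). Cacna1g, the other main T-type gene, had 7.56, 5.63 and 6.45 FPKM against 6.15, 6.81 and 7.22 FPKM, with overlapping groups and a log2 fold change of 0.04. Replicate 2 of the MPTP treated mice, the mouse with the high choroid plexus markers, had the lowest value of its group for Cacna1d, Cacna1g and Cacna1h. Control replicate 2 was also the lowest of its group for these genes, with choroid plexus markers at 27.3 CPM. Both mice had the lowest thalamus marker sum of their group, at 142 CPM (MPTP) and 218 CPM (control). Of the 19 marker lists, 2 had sums that did not overlap between irisin first and MPTP alone. Astrocyte markers were at 1078 to 1178 CPM with MPTP alone and 938 to 1042 CPM with irisin first. Endothelium markers were at 122 to 135 CPM and 112 to 119 CPM. Single markers went both ways. A negative log2 fold change was found for 3 of 5 astrocyte markers and 2 of 4 endothelium markers, and a positive one for the others. Of the 14 dopaminergic markers, 13 had a negative log2 fold change, with a median of -0.31, and Slc6a3 was at 13.2 to 17.1 FPKM with MPTP alone and 6.65 to 9.57 FPKM with irisin first. The part of these cell types and tissues in the channel results was not tested.

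**Figure D2:**
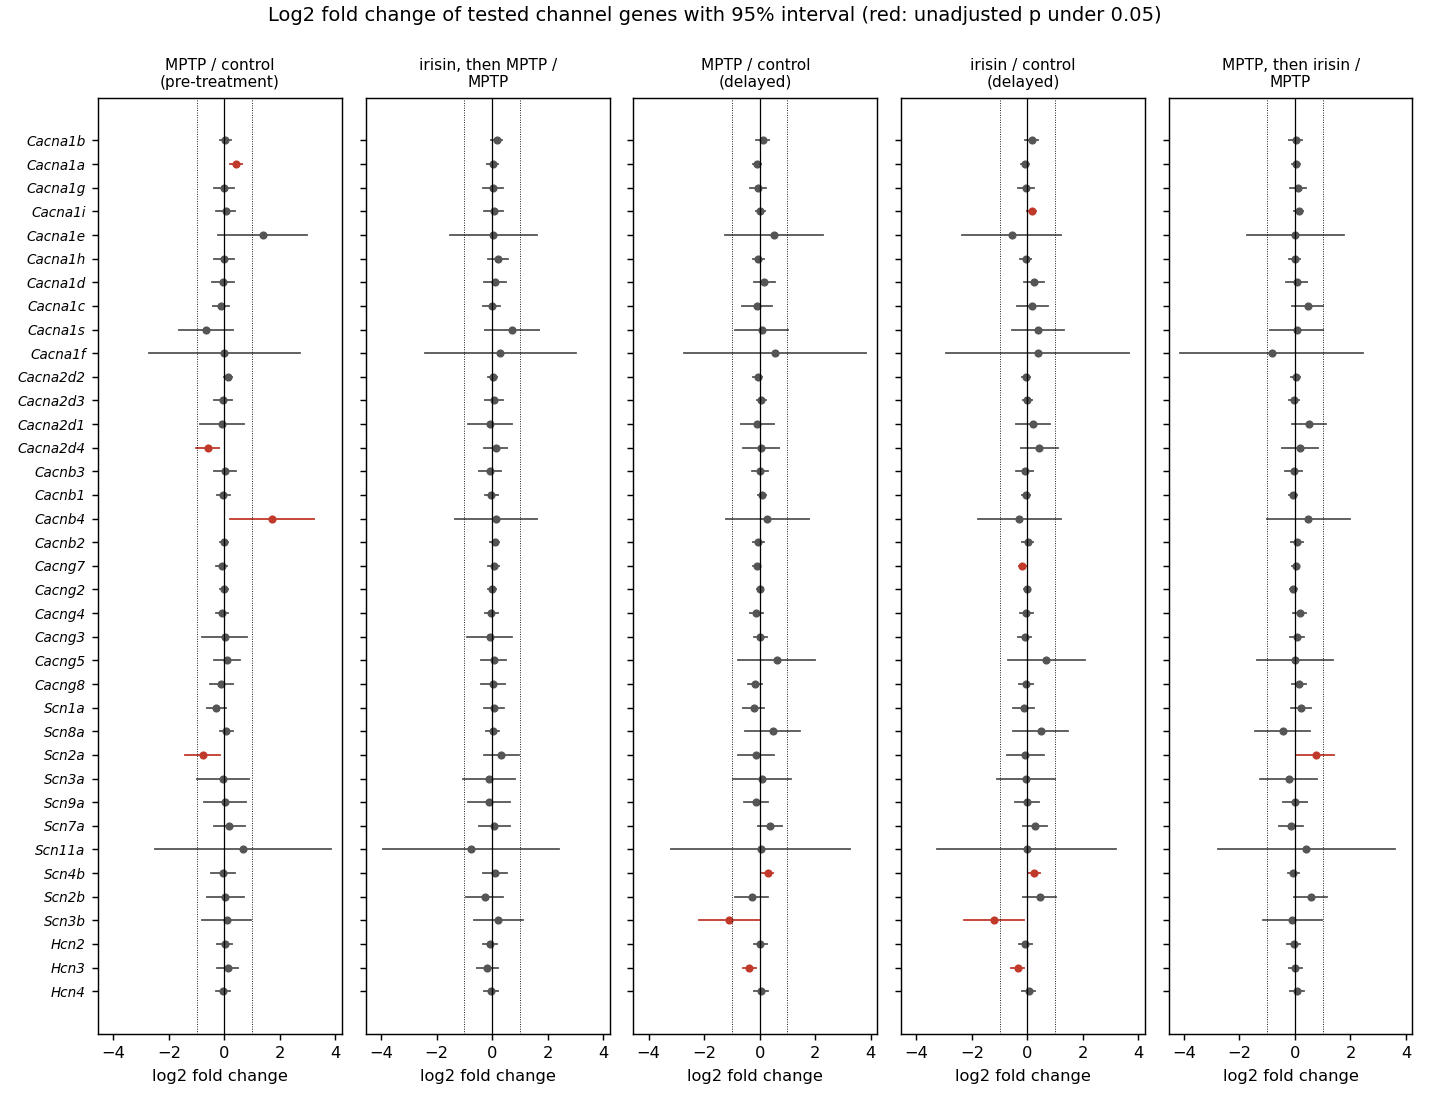
Log2 fold change (x axis) with its 95% interval for 37 of the tested channel genes in 5 comparisons, with dotted lines at a change of 2-fold and red for an unadjusted p under 0.05. Red genes number 4, 0, 3, 5 and 1 from left to right, most intervals lie inside the dotted lines, and the widest belong to Cacna1f, Scn11a, Cacna1e and Cacnb4.

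In the delayed treatment experiment, MPTP treated mice were sampled after 5 further days of vehicle. No member passed an adjusted p of 0.05 by edgeR in MPTP against control (40 members among 21922 tested genes), nor by DESeq2 or limma, and 0.132% of all tested genes passed. At an unadjusted p under 0.05 there were 3 members by edgeR, 3 by DESeq2 and 2 by limma, which for edgeR is 7.5% against 8.33% of all tested genes. The median log2 fold change was 0.02 over members and 0.00 over all tested genes. Groups did not overlap for 7 members, 2 higher and 5 lower, or 17.5%, against 16.6% of all tested genes. Both shares of the members were near those of all genes.

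Hcn3 (chr3:89146074-89160196, minus strand), a weakly cAMP-sensitive HCN channel, had 6.70, 5.86 and 5.49 FPKM in control mice and 4.33, 4.70 and 5.20 FPKM in MPTP treated mice. The MPTP treated mice were all below the control mice. Its log2 fold change was -0.37 ± 0.11 (SE), with an unadjusted p of 0.00546 and an adjusted p of 0.385 by edgeR. Control mice of the pre-treatment experiment had 4.74, 3.17 and 4.43 FPKM and MPTP treated mice had 4.11, 5.31 and 3.97 FPKM. There the groups overlapped, and the log2 fold change was 0.11.

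Scn4b (chr9:45138395-45154152, plus strand), the beta subunit linked with resurgent sodium current and fast firing, had 57.8, 56.9 and 48.8 FPKM in control mice and 66.8, 66.0 and 71.2 FPKM in MPTP treated mice. All MPTP treated mice were above the control mice, with a log2 fold change of 0.30 ± 0.09 (SE), an unadjusted p of 0.00774 and an adjusted p of 0.398 by edgeR. Scn4b overlapped in the pre-treatment experiment between control mice (34.2, 50.5 and 31.8 FPKM) and MPTP treated mice (37.1, 38.2 and 38.9 FPKM).

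Scn3b had a control mouse far from the others. Control mice had 2.62, 12.9 and 3.16 FPKM and MPTP treated mice had 3.01, 2.65 and 3.09 FPKM. The log2 fold change of -1.11 ± 0.49 (SE), with an unadjusted p of 0.0449 and an adjusted p of 0.579 by edgeR, rested on control replicate 2. Without that mouse it was -0.02, with an unadjusted p of 0.946 and an adjusted p of 0.997.

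The dopaminergic markers, in contrast to the channel genes, were lower throughout the MPTP group of this experiment. Their 14 genes summed to 866 to 923 CPM in control mice and 600.2 to 757 CPM in MPTP treated mice, and all 14 had a negative log2 fold change with a median of -0.41, of which 8 had an unadjusted p under 0.05 and 0 an adjusted p under 0.05 by edgeR. The 8 general neuronal markers also had a lower sum, at 8247 to 8406 CPM and 7732 to 7999 CPM, and 7 of them had a negative log2 fold change. Of the 19 marker lists, these were the 2 whose sums did not overlap, and their part in the channel results was not tested.

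The pacemaking genes of the same mice did not separate. Cacna1d had 1.33, 1.82 and 1.61 FPKM in control mice and 1.83, 2.05 and 1.56 FPKM in MPTP treated mice, with a log2 fold change of 0.17 (95% interval -0.20 to 0.54). Cacna1c had 1.48, 1.92 and 2.0 FPKM against 1.66, 2.31 and 1.13 FPKM, with -0.10 (95% interval -0.65 to 0.45). Hcn2 had 108, 88.0 and 96.8 FPKM against 107, 93.5 and 103 FPKM, with 0.03 (95% interval -0.21 to 0.27). Thus no change in either direction was resolved for these genes, and the interval of Cacna1c was the widest. Hcn4 had 3.93, 3.68 and 4.08 FPKM against 3.93, 4.30 and 3.93 FPKM, with 0.03. Cacna1g had 6.93, 7.58 and 8.22 FPKM against 6.90, 8.15 and 7.11 FPKM, and Cacna1h had 2.75, 2.95 and 2.90 FPKM against 2.87, 2.88 and 2.68 FPKM, with -0.06 and -0.05. Dcp1a and Chdh lie on the opposite strand within Cacna1d, and Dcp1b within Cacna1c, with 646 to 2001 reads per mouse over these 3 genes and 1112 to 2730 reads for Cacna1d, and these reads may not be separated by strand.

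Irisin alone against control asked what irisin does without the toxin. No member passed an adjusted p of 0.05 by edgeR, DESeq2 or limma, and 0.109% of all tested genes did. At an unadjusted p under 0.05 there were 6 members by edgeR (2 higher and 4 lower), 5 by DESeq2 and 4 by limma, and the edgeR count was 3 without irisin replicate 1 or irisin replicate 2. The 6 are 15% of the members, against 8.97% of all tested genes, and the 6 members with groups that did not overlap are also 15%, against 15% of all tested genes. The median log2 fold change was -0.02 over members and 0.00 over all tested genes.

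The 3 smallest unadjusted p values belonged to Hcn3, Cacng7 and Scn4b. Irisin mice had 4.57, 5.38 and 4.41 FPKM of Hcn3, all below the control mice given above, with a log2 fold change of -0.34 ± 0.11 (SE), an unadjusted p of 0.00824 and an adjusted p of 0.441 by edgeR. Cacng7 (chr7:3332955-3368221, plus strand), a TARP of AMPA receptors, had 85.7, 83.6 and 85.7 FPKM in control mice and 70.9, 79.5 and 76.1 FPKM in irisin mice. The control mice were unusually close together here, and all irisin mice were below them, with a log2 fold change of -0.18 ± 0.06 (SE), an unadjusted p of 0.00857 and an adjusted p of 0.443 by edgeR. Scn4b had 58.4, 68.7 and 68.0 FPKM in irisin mice, with a log2 fold change of 0.24 ± 0.09 (SE), an unadjusted p of 0.0220 and an adjusted p of 0.519 by edgeR. The lowest irisin mouse of Scn4b was just above the highest control mouse, at 57.8 FPKM.

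MPTP and irisin mice were compared with the same 3 control mice, so that the values of these comparisons are not independent. Hcn3, Scn4b and Scn3b had an unadjusted p under 0.05 in both, with log2 fold changes of -0.37, 0.30 and -1.11 for MPTP and -0.34, 0.24 and -1.19 for irisin. Without control replicate 2, Scn3b had -0.09 for irisin. Cacna1i, a T-type pore, was also under 0.05 for irisin, with 0.15. The marker sums of 5 of 19 lists also separated irisin from control mice, all lower in irisin mice. General neuronal markers were at 7674 to 8003 CPM, dopaminergic markers at 792 to 807 CPM, and the other 3 lists were cholinergic neuron, striatum and astrocyte markers. A positive log2 fold change was found for 1 of 8 neuronal, 1 of 14 dopaminergic, 2 of 5 striatum and 1 of 5 astrocyte markers. Choroid plexus markers overlapped in sum, at 79.9, 90.6 and 312 CPM in irisin mice and 1504, 1346 and 255 CPM in control mice. All 5 choroid plexus markers had a negative log2 fold change, with a median of -1.94. The part of all these markers in the channel results was not tested.

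**Figure D3:**
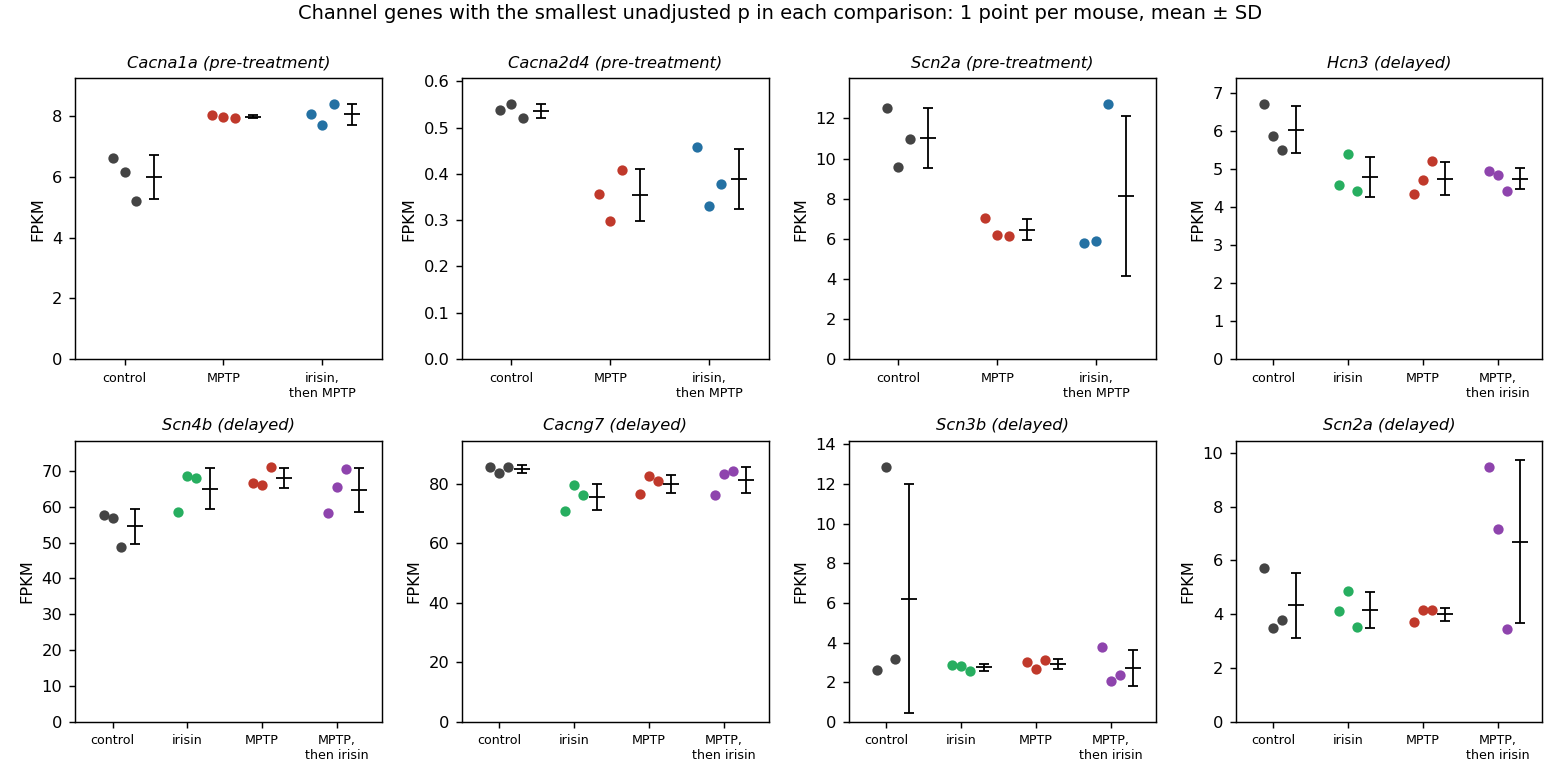
FPKM (y axis, from 0) of the channel genes with the smallest unadjusted p, 1 point per mouse with the mean ± SD of the group beside it. MPTP treated and control mice do not overlap for Cacna1a, Cacna2d4 and Scn2a in the pre-treatment panels and for Hcn3 and Scn4b in the delayed panels, each of these 5 genes overlapped in the other experiment, and Scn3b shows 1 control mouse at 12.9 FPKM.

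Delayed irisin after MPTP was compared with MPTP followed by vehicle, the contrast for treatment after injury. No member passed an adjusted p of 0.05 by edgeR, DESeq2 or limma, and 0.00456% of all tested genes, a single gene, did by edgeR. At an unadjusted p under 0.05 there was 1 member by edgeR, 2.5% against 3.9% of all tested genes, with 2 members by DESeq2 and 0 by limma. The edgeR count was 0 without MPTP replicate 3, 3 without MPTP replicate 2 and 4 without replicate 3 of the delayed irisin group. Scn2a was that gene, with 3.72, 4.14 and 4.15 FPKM in MPTP treated mice and 9.49, 7.15 and 3.45 FPKM after delayed irisin. The highest 2 irisin mice were above every other mouse of the experiment and the third was below the MPTP treated mice. The log2 fold change was 0.75 ± 0.30 (SE), with an unadjusted p of 0.0299 and an adjusted p of 1.0 by edgeR, and without replicate 1 of the delayed irisin group it was 0.42 with an adjusted p of 1.0. That replicate 1, the mouse at 9.49 FPKM, also had the highest sum of thalamus markers in the experiment. The sum was 310 CPM, against 140 to 208 CPM in the other mice, and its part in the channel results was not tested. Scn2b, a beta subunit, was the 1 member whose groups did not overlap, at 21.9 to 30.2 FPKM with MPTP and 31.0 to 43.7 FPKM after delayed irisin, or 2.5% of the members against 10.9% of all tested genes.

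The remaining genes of dopaminergic pacemaking overlapped between the delayed irisin and MPTP groups. Cacna1d had 2.21, 1.54 and 1.89 FPKM after delayed irisin, with a log2 fold change of 0.06 (95% interval -0.31 to 0.43). Hcn2 had 84.1, 104 and 102 FPKM, with -0.05 (95% interval -0.29 to 0.19). Hcn4 had 4.93, 3.82 and 4.08 FPKM, with 0.08 (95% interval -0.16 to 0.33). Cacna1c had 2.97, 1.77 and 2.23 FPKM, with 0.45 and a wider interval of -0.09 to 1.0. In all, 27 of 40 members had an interval inside 2-fold in this comparison, fewer than the 33 of 40 in each comparison of the pre-treatment experiment.

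The interaction asked whether the effect of irisin differed between mice with and without MPTP. No member passed an adjusted p of 0.05 by edgeR, DESeq2 or limma, and 0.0411% of all tested genes did. At an unadjusted p under 0.05 there were 3 members by edgeR, 4 by DESeq2 and 2 by limma, 7.5% by edgeR against 5.57% of all tested genes. The edgeR count was 1 without irisin replicate 1 or MPTP replicate 1, 0 without replicate 2 of the delayed irisin group and 5 without its replicate 3. Cacng7, Scn4b and Hcn3 had interaction terms of 0.21 ± 0.08, -0.31 ± 0.13 and 0.35 ± 0.15 (log2, SE). Their unadjusted p values were 0.0230, 0.0365 and 0.0407, and the adjusted p was 0.893 by edgeR for each. After delayed irisin, Cacng7 was at 76.3, 83.3 and 84.2 FPKM, Scn4b at 58.1, 65.4 and 70.4 FPKM and Hcn3 at 4.94, 4.85 and 4.42 FPKM. For Scn4b and Hcn3 all 9 mice given MPTP, irisin or both lay on one side of the 3 control mice, above them for Scn4b and below them for Hcn3.

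The leading alpha2delta and beta subunits and sodium channel pore are given next. Cacna2d2 had 12.4, 12.1 and 13.8 FPKM in control mice, 14.6, 13.3 and 14.2 FPKM in MPTP treated mice and 13.7, 14.4 and 14.5 FPKM with irisin before MPTP. Its log2 fold change for MPTP was 0.13 (95% interval -0.02 to 0.28). It ran from 13.5 to 16.2 FPKM over all 12 mice of the delayed treatment experiment. Cacna2d3 ran from 3.70 to 4.95 FPKM over the 9 mice and from 5.12 to 6.38 FPKM over the 12 mice, with log2 fold changes between -0.05 and 0.07 in the 5 comparisons. Cacnb3 ran from 7.95 to 12.8 FPKM and from 11.5 to 16.4 FPKM. Both genes kept their groups mixed.

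Scn1a, the highest sodium channel pore, had 20.9, 20.8 and 26.3 FPKM in control mice, 21.2, 14.5 and 19.8 FPKM in MPTP treated mice and 21.1, 17.4 and 19.9 FPKM with irisin before MPTP. The log2 fold change of MPTP against control was -0.30 (95% interval -0.64 to 0.05). In the delayed treatment experiment, control mice had 18.6, 16.0 and 16.7 FPKM and MPTP treated mice had 15.5, 14.3 and 15 FPKM, with -0.22 (95% interval -0.59 to 0.15). Its MPTP treated mice were all below the control mice there, but the interval included 0.

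Several members were on separate levels in mice of the same group. Cacna1e, Cacnb4 and Cacng5 are described for this reason and were chosen after their values were seen. Cacna1e (ENSMUSG00000004110, chr1:154390731-154884024, minus strand in the first table) codes for the R-type pore. In the pre-treatment experiment, control mice had 0.721, 0.516 and 4.88 FPKM, and all 6 mice given MPTP had 4.94 to 5.86 FPKM. Control mice of the delayed treatment experiment had 0.382, 3.48 and 3.23 FPKM, irisin mice had 0.571, 3.79 and 0.482 FPKM, and the 6 mice given MPTP had 2.97 to 4.31 FPKM. Over both experiments, 5 mice were at 0.382 to 0.721 FPKM and 16 mice at 2.97 to 5.86 FPKM, with none between. All 5 low mice were mice without MPTP.

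The test did not call Cacna1e, with a log2 fold change of 1.38 (95% interval -0.22 to 2.98) for MPTP against control in the pre-treatment experiment and 0.52 (95% interval -1.24 to 2.28) in the delayed treatment experiment. The adjusted p was 0.838 in the first by edgeR. Without control replicate 3, the one control mouse on the high level, the log2 fold change was 3.07 with an adjusted p of 0.000783 by edgeR, and Cacna1e was then the 1 member past the threshold.

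Cacnb4 (ENSMUSG00000017412, chr2:52428320-52676831, minus strand), a beta subunit whose loss in the lethargic mouse causes ataxia, also had levels with a gap. In the pre-treatment experiment, control mice had 3.61, 3.93 and 3.44 FPKM, MPTP treated mice had 3.24, 14.8 and 18.1 FPKM, and mice given irisin before MPTP had 18.0, 3.94 and 18.1 FPKM. In the delayed treatment experiment, control mice had 8.39, 1.95 and 9.94 FPKM, irisin mice 2.65, 2.94 and 11.2 FPKM, MPTP treated mice 10.6, 11.2 and 3.04 FPKM, and mice given delayed irisin 13.2, 10.3 and 10.8 FPKM. Over both experiments 9 mice were at 1.95 to 3.94 FPKM and 12 mice at 8.39 to 18.1 FPKM. The low mice were not the same as those of Cacna1e, since MPTP treated mice and 1 mouse with irisin before MPTP were among them. Its unadjusted p for MPTP against control was 0.0319 in the pre-treatment experiment, with an adjusted p of 0.823 by edgeR, and 0.704 in the delayed treatment experiment, with an adjusted p of 0.960.

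**Figure D4:**
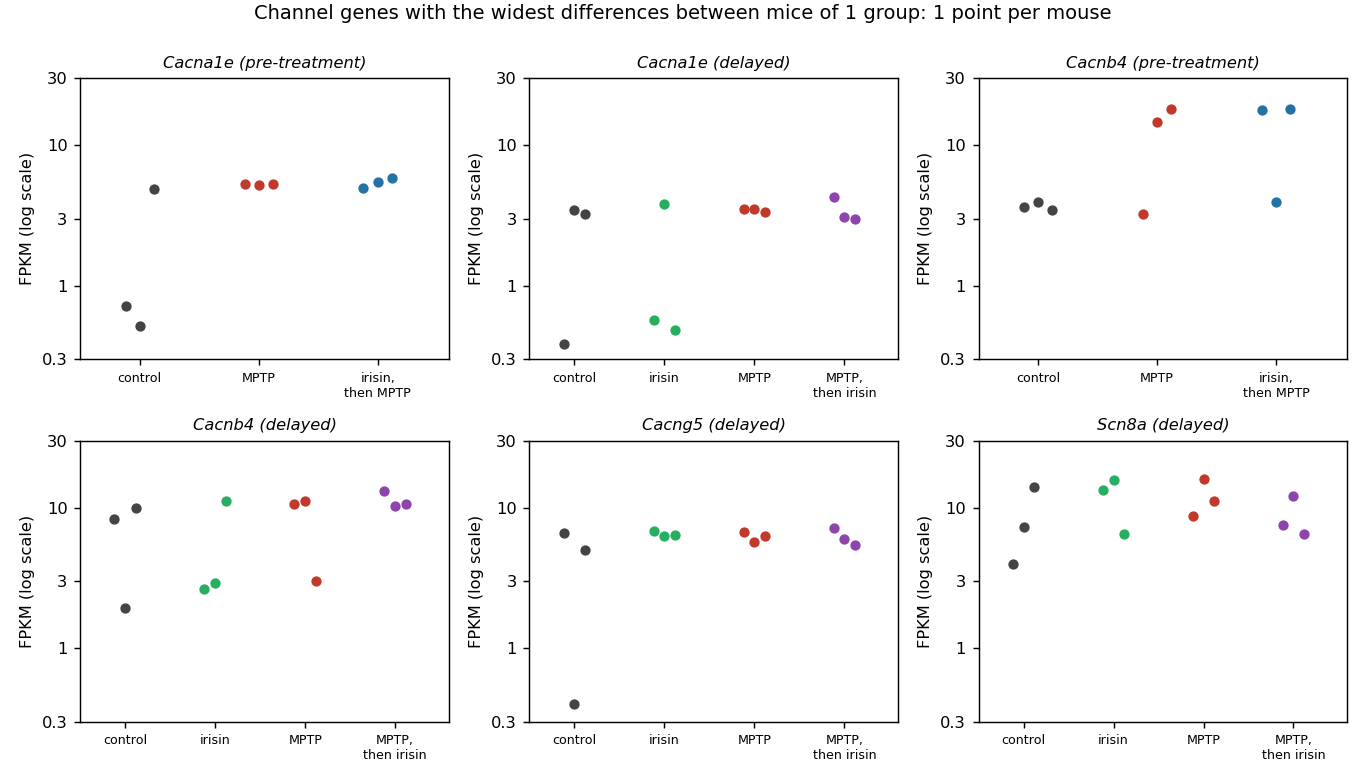
FPKM (y axis, log scale, the same range in each panel) of channel genes with wide differences between mice of a group, 1 point per mouse. Cacna1e and Cacnb4 each show a low and a high level with a gap between them, and Cacng5 shows 1 control mouse at 0.400 FPKM.

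Cacng5, a TARP, had 6.64, 0.400 and 5.00 FPKM in the control mice of the delayed treatment experiment, and the other 9 mice of that experiment had 5.49 to 7.23 FPKM. Scn8a (NaV1.6), the main pore of the axon initial segment, had 4.01, 7.39 and 14.0 FPKM in control mice, 13.5, 15.8 and 6.58 FPKM in irisin mice, 8.74, 16.1 and 11.2 FPKM in MPTP treated mice and 7.52, 12.3 and 6.55 FPKM after delayed irisin. It thus varied as much within groups as between them, and its intervals reached from -0.51 to 1.46 on the log2 scale for MPTP against control. In the pre-treatment experiment the same gene was tight, at 12.9 to 17.4 FPKM over 9 mice.

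Such spread was counted over members with a mean of at least 5 CPM. Of the pre-treatment experiment, 9 of 35 members, or 25.7%, differed by more than 2-fold between mice of at least 1 group, against 11.6% of all 12460 genes with that mean. The delayed treatment experiment had 10 of 34 members, or 29.4%, against 10.7% of 12447 genes. Cacna1e, Cacna2d1, Cacnb4, Scn2a, Scn2b, Scn3a and Scn3b were above 2-fold in both. The gene length implied by count and FPKM had a median of 14.0 kb for the 9 members and 8.62 kb for the other 26 in the pre-treatment experiment, and 14.2 kb and 7.92 kb in the delayed treatment experiment. For any one member with more than 50 reads this length differed by less than 3% between mice of the same experiment. The separate levels are therefore in the counts and not in the length scaling. The part of gene length, of transcripts and of read assignment in this spread was not tested.

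Proteins that bind these channels were examined as a list of 30 gene symbols. Of these, 29 were found in each experiment, and all 29 were tested. None passed an adjusted p of 0.05 in any of the 6 comparisons by edgeR. The numbers at an unadjusted p under 0.05 were 2, 0, 7, 5, 1 and 6 in the order of the comparisons above. These were 6.9%, 0%, 24.1%, 17.2%, 3.4% and 20.7% of the list, against 6.03%, 6.22%, 8.33%, 8.97%, 3.9% and 5.57% of all tested genes. Calm2, a calmodulin gene whose protein is bound by calcium and sodium channel pores, had 806 ± 36.2 FPKM in control mice and 530 ± 30.6 FPKM in MPTP treated mice of the pre-treatment experiment (SD, n = 3 each). Its log2 fold change was -0.61 ± 0.14 (SE), with an adjusted p of 0.579 by edgeR, and in the delayed treatment experiment it was -0.06. Calm2 belongs to a family of closely similar genes, and how shared reads were counted was not tested.

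Cabp1, a calcium binding protein that slows the inactivation of L-type channels, had 15.6 ± 1.34 FPKM in control mice and 11.3 ± 0.651 FPKM in MPTP treated mice of the delayed treatment experiment (SD, n = 3 each). Its log2 fold change was -0.49 ± 0.12 (SE), with an adjusted p of 0.262 by edgeR. For irisin alone the smallest p was that of Fgf11, an intracellular FGF that binds sodium channels, at 19.2 ± 1.32 FPKM in control mice and 15.5 ± 0.807 FPKM in irisin mice (SD, n = 3 each). The log2 fold change was -0.32 ± 0.07 (SE), with an adjusted p of 0.225 by edgeR. Rem2, a small GTPase that inhibits calcium channels, led the interaction with 0.97 ± 0.27 (log2, SE) and an adjusted p of 0.764 by edgeR, and Fam155a, a partner of the sodium leak channel, was the 1 gene for delayed irisin with 0.12 ± 0.05 (SE) and an adjusted p of 1.0 by edgeR.

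Genes that store, release and pump calcium, a list of 36 genes that were all tested, gave 4, 1, 1, 3, 2 and 2 genes at an unadjusted p under 0.05 and 0 at an adjusted p under 0.05 by edgeR. These were 11.1%, 2.8%, 2.8%, 8.3%, 5.6% and 5.6% of the list, against 6.03%, 6.22%, 8.33%, 8.97%, 3.9% and 5.57% of all tested genes. For MPTP against control, all 4 genes were higher with MPTP in the pre-treatment experiment and the 1 gene of the delayed treatment experiment was lower. The 4 genes were Itpr1, the inositol trisphosphate receptor, at a log2 fold change of 0.42, Stim1, the sensor of the calcium store, at 0.57, and the plasma membrane pumps Atp2b3 at 0.31 and Atp2b4 at 0.24. The median of the list for MPTP was 0.05 (pre-treatment) and 0.07 (delayed treatment).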

How the data were processed

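RNA was sequenced by the study on an Illumina NovaSeq 6000, and the authors counted reads per gene with featureCounts. The submitters' processing notes also list HISAT, StringTie and edgeR and the build mm9, without roles or versions. The aligner's role, the annotation release and the use of strand are not given in the sources used here. Gene positions in the tables equalled those of GRCm38 (GENCODE M21) for 91.9% and 94.2% of genes, so positions are given on GRCm38.

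The deposited tables hold a raw count and an FPKM value for each gene and mouse, both made by the authors. Tests used the counts. FPKM was used for levels and 1 alternative. The value 4 was over-represented among the deposited counts, with 10456 and 15148 values against 4328 and 4491 values of 3, which touches low genes.

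The counts of each experiment were fitted separately in edgeR 4.0.16 (R 4.3.3) with all its groups, filterByExpr (minimum count 10, minimum total 15), TMM scaling and the two-sided quasi-likelihood test, and p-values were adjusted over all tested genes. The SE is the log2 fold change over the square root of F, and intervals are 95%. The replicate spread was that between mice of 1 group. CPM values are TMM scaled. DESeq2 1.42.0, limma 3.58.1 on log2(FPKM + 1), another scaling, no filter, the compared groups alone, the replicate number as a block and leaving out each mouse were the alternatives, and the code was tested on simulated counts. Same-numbered mice did not deviate together (correlations of deviations from group means of -0.08 to 0.17). No pair of mice in a group agreed within sampling noise.

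Per-mouse values were given for members under the adjusted threshold, the 3 smallest unadjusted p under 0.05 of each comparison, 10 members known from dopaminergic neurons and the highest member of each role group (some genes are counted in the totals but not reported here), and for the channel partner list the gene with the smallest p of each comparison. Members and lists were chosen with earlier results of these data known. With 3 mice a group, an exact permutation test cannot go below a two-sided p of 0.1, so none was used.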

Additional observations from a re-analysis of the deposited data

How the results depend on the processing

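The count of members past an adjusted p of 0.05 was 0 in each of the 6 comparisons, and it remained 0 in 76 of 77 alternative analyses. The exception was MPTP against control in the pre-treatment experiment, where leaving out 1 mouse gave 0 to 1 members, the 1 being Cacna1e without control replicate 3. The replicate block left all 6 counts at 0, and at an unadjusted p under 0.05 it gave 5, 0, 2, 3, 1 and 2 members in the order of the text, against 4, 0, 3, 6, 1 and 3 without it. Leaving out 1 mouse moved the counts at an unadjusted p under 0.05 to 2 to 7, 0 to 1, 2 to 4, 3 to 7, 0 to 4 and 0 to 5 members. DESeq2 called 91, 169, 179, 145, 34 and 62 genes over all tested genes at an adjusted p of 0.05, against 5, 16, 29, 24, 1 and 9 by edgeR, and no member in any comparison. Over all tested genes the block gave 2, 8, 17, 14, 1 and 7 and limma 5, 15, 20, 19, 1 and 3. DESeq2 gave no p for Cacna1e in MPTP against control of the pre-treatment experiment, and the fit of the compared groups alone was not run for the interaction, which uses all 4 groups. Same-numbered mice are different animals. The 18 gene results checked were the member results with an unadjusted p under 0.05 by edgeR, and Cacna1e, added after its values were seen. Their log2 fold changes kept their direction in all 231 alternatives, which reuse the same mice. Results picked for a small p seldom change direction in such refits, so this is no separate evidence for them. Cacna1e without control replicate 3 was the 1 that passed the threshold. Other values moved by more than 1.5 times. Cacna2d4 had -0.18 with limma on log2(FPKM + 1), a scale that shrinks low genes. Scn3b ran from -1.48 to -0.02 for MPTP and from -1.56 to -0.09 for irisin, the smaller values without control replicate 2. Scn2a for delayed irisin ran from 0.42 to 1.07, the extremes without replicates 1 and 3 of that group. With 3 mice a group, the median SE of a member's log2 fold change for MPTP against control was 0.17 (pre-treatment) and 0.13 (delayed treatment). Differences of this size could not be resolved, and larger ones also stayed above the adjusted threshold. The lowest adjusted p of a member in the pre-treatment comparison, that of Cacna1a, was 0.608 by edgeR.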
